A study of Mus musculus with 35 samples.

Results

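Solute carrier (Slc) genes encode membrane proteins that move amino acids, sugars, nucleotides, metals and ions across the plasma membrane and the membranes of organelles. The genes described here are the 119 Slc genes detected in mouse CD8 T cells, among 22865 genes in the count table and 244 symbols that start with Slc and a digit. The members were chosen by their measured level: a gene was included when its mean CPM (its count divided by the library's total count and multiplied by 1000000) reached 10 in at least 1 of 6 groups of libraries; pseudogenes and 2 identical libraries were left out. Of the 119 symbols, Slc4a1ap, Slc9a3r1, Slc36a3os and Slc7a6os do not name carriers; they were kept because the rule works on the symbol. Because the rule selected on the levels, these are given as a description.

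The mice were C57BL/6 animals of 13 months on diets labelled ND and CD-HFD, with no other treatment or allele named for any group. From the liver, CD8 T cells sorted as CXCR6pos or CXCR6neg were sequenced, and from the spleen CD8 T cells sorted as CX3CR1neg. CXCR6 is a chemokine receptor of tissue-resident lymphocytes. The libraries used were 6 ND CXCR6pos, 5 CD-HFD CXCR6pos, 4 ND CXCR6neg, 6 CD-HFD CXCR6neg, 6 CD-HFD spleen and 5 ND spleen. The labels do not say that replicates came from separate animals, so the p-values below measure the spread between these samples. Cells were sorted straight into lysis buffer, and the 3′ ends of polyadenylated RNA were sequenced in bulk, so fewer cells of a type and less RNA per cell cannot be told apart.

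Activated T cells raise the uptake of amino acids and glucose to feed growth, and several carriers are known from that setting. Slc3a2 is the heavy chain of CD98, which brings the light chains Slc7a5 and Slc7a6 to the cell surface for exchange of amino acids. Slc1a5 and Slc38a2 import glutamine and small neutral amino acids, and Slc2a1 and Slc2a3 import glucose. Inside the cell, the Slc25 family links the cytosol with the mitochondrial matrix, and the Slc35 family loads nucleotide sugars into the Golgi and endoplasmic reticulum.

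The depth of the libraries limited which carriers could be tested. Totals ran from 15633 to 978896 counts, with a median of 308123, at which 1 count equals 3.25 CPM. In ND CXCR6pos replicate 1, with 15633 counts, 1 count equals 64.0 CPM, and in CD-HFD CXCR6pos replicate 5, with 57168 counts, it equals 17.5 CPM. The column for ND CXCR6neg replicate 1 was identical to that of ND spleen replicate 6, and both were left out. Cxcr6 itself lay between 189.9 and 823 CPM in the CXCR6pos libraries and between 37.9 and 426 CPM in the CXCR6neg libraries, so the ranges overlapped; ND CXCR6pos replicate 6 was the lowest of its fraction and ND CXCR6neg replicate 4 the highest of the other, at odds with their labels. The T cell genes Cd3e, Cd3g, Cd8a and Cd8b1 were counted in all 6 groups and summed to between 3172 and 7459 CPM per library. Markers of other cells were present too: the 8 plasmacytoid dendritic cell genes summed to 768 to 1294 CPM in CD-HFD CXCR6neg, 496 to 999 CPM in ND CXCR6neg, 118 to 213 CPM in CD-HFD CXCR6pos (Ccr9 and Spib at 0), 93.3 to 921 CPM in ND CXCR6pos and 224 to 397 CPM in the spleen groups. The 8 B cell genes summed to 168 to 285 CPM in CD-HFD CXCR6pos, 176 to 1180 CPM in ND CXCR6pos, 1006 to 1344 CPM in CD-HFD CXCR6neg (Cd79a and Ms4a1 at 0), 691 to 1361 CPM in ND CXCR6neg (Cd79a and Ebf1 at 0) and 1510 to 2715 CPM in spleen. The 6 erythroid genes summed to 1640 to 10018 CPM in the liver libraries, a range that spans that of the T cell genes, and to 773 to 4782 CPM in spleen.

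Most members were expressed at low levels. The share of all counts that fell on the 119 members was 0.558% ± 0.0171 (SD, n = 5) in CD-HFD CXCR6pos, 0.536% ± 0.0163 (n = 6) in ND CXCR6pos, 0.512% ± 0.0363 (n = 4) in ND CXCR6neg, 0.512% ± 0.0239 (n = 6) in CD-HFD CXCR6neg, 0.489% ± 0.0132 (n = 6) in spleen on CD-HFD and 0.493% ± 0.00995 (n = 5) in spleen on ND. A single member, Slc3a2, weighed much in these shares. Its mean, scaled as described below, was 814 CPM in CD-HFD CXCR6pos and 423 CPM in CD-HFD CXCR6neg. A higher share is thus not a rise of the members in general. A filter on low counts passed 61 members, and 58 were too low to test. The tested members had a mean of 17.2 to 621 CPM over the 32 libraries (median 39.4) and a median count of 4 to 199 per library (median 11). The untested ones had a mean of 1.96 to 21.4 CPM (median 12.02) and a median count of 0 to 7. At least 10 CPM was reached in all 6 groups by 75 members, and in exactly 1 group by 11. Just inside the limit stood Slc36a3os (10.1 CPM in its highest group), Slc12a4 (10.1 CPM) and Slc35e2 (10.4 CPM), and just outside it Slc7a5 (9.87 CPM), Slc2a6 (9.77 CPM) and Slc35e4 (9.72 CPM). Slc7a5, the main light chain of CD98, thus fell outside with 48 counts in the whole data set.

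Across the tested members the highest group mean was 1.17 to 4.53 times the lowest, with a median of 1.71. All levels below are CPM scaled by edgeR's TMM factors, and the tests are edgeR's quasi-likelihood tests over 6174 genes, called at an adjusted p under 0.05. A map of the tested members by group shows where each stood relative to its own mean.

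**Figure D1:**
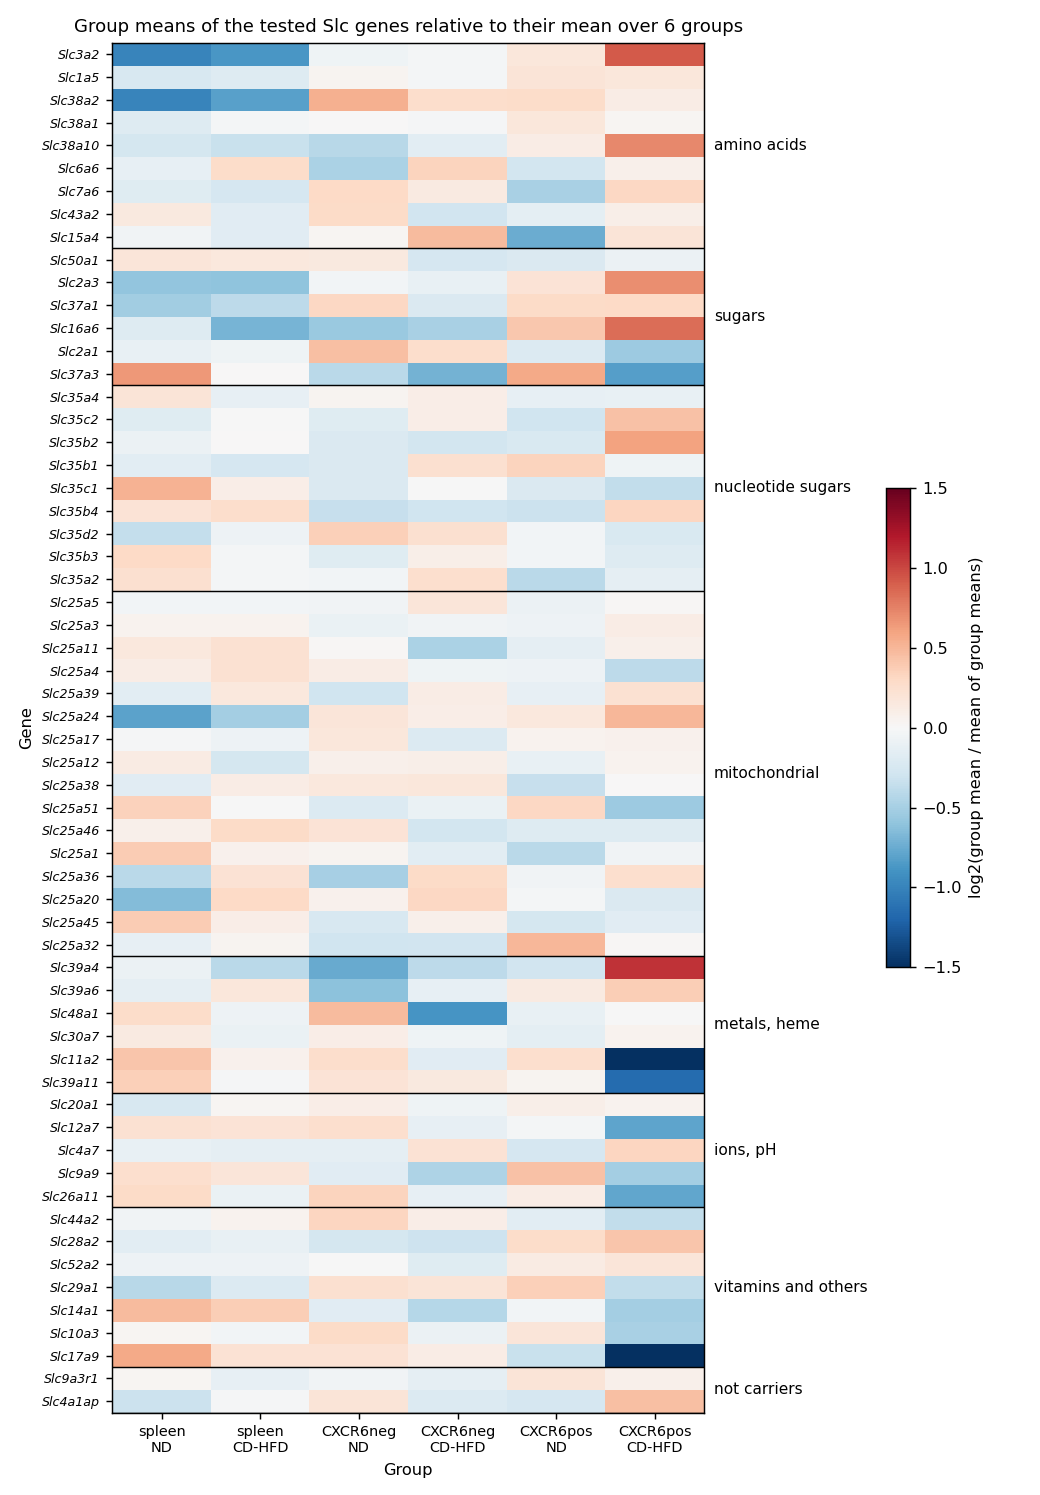
The tested members (60 rows, ordered by what they carry) in the 6 groups (columns), coloured by the log2 ratio of the group mean CPM to the mean of the group means. Slc17a9 (-1.62) and Slc11a2 (-1.53) in CD-HFD CXCR6pos are the lowest cells and lie past the end of the colour scale.

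The members changed about as often as other genes did. Between CXCR6pos and CXCR6neg cells of CD-HFD livers, 6 of 61 members passed (9.84%), beside 11.1% of all genes tested; 3 were higher in CXCR6pos, beside 4.76% of all genes, and 3 lower, beside 6.38%. In ND livers no member passed by edgeR or by DESeq2, beside 0.0324% of all genes, and 5 members had an unadjusted p under 0.05 by edgeR. Both libraries at odds in Cxcr6 are in this ND comparison: CXCR6pos replicate 6 (189.9 CPM) and CXCR6neg replicate 4 (426 CPM). The lack of calls is thus no sign that the fractions are alike on ND. Both also enter the difference of diet effects between CXCR6pos and CXCR6neg cells, given below. Between the diets within CXCR6pos cells, 8 members passed (13.1%), beside 11.3% of all genes, 4 of them higher on CD-HFD (4.84% of all genes) and 4 lower (6.45%). The share of members was close to the background in both comparisons, and the median log2 fold change of the 61 members was 0.03 and -0.02, beside 0.00 and 0.00 for all genes. Without the libraries at odds in Cxcr6, 5 members passed for diet in CXCR6pos cells, with Slc39a4 (adjusted p = 0.0769) and Slc35b2 (0.240) among those lost. The counts of 6 and 8 both include Slc39a4, which passed the filter on low counts only through CD-HFD CXCR6pos libraries.

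The same diets gave no member call in the other populations. Within CXCR6neg cells 0 members passed by edgeR and 0 by DESeq2 (4 at an unadjusted p under 0.05 by edgeR), beside 0.47% of all genes, and within spleen cells 0 passed by either tool (3 unadjusted by edgeR), beside 0.0324%. Between CXCR6neg liver cells and spleen cells, 5 members passed on CD-HFD (8.2%), beside 10.4% of all genes. Of these 3 were higher in liver, beside 5.73% of all genes, and 2 lower, beside 4.71%. On ND 3 members passed (4.92%), beside 6.87% of all genes, all 3 higher in liver, beside 4.73%; without the libraries at odds, Slc37a1 was lost (adjusted p = 0.1002). The effect of diet itself was also compared. It differed between CXCR6pos and spleen cells for 2 members (3.28%), beside 3.98% of all genes, both with the more negative diet effect in CXCR6pos cells (2.77% of all genes), and between CXCR6pos and CXCR6neg cells for 0 members by edgeR and by DESeq2 (8 unadjusted by edgeR), beside 1.44%. These comparisons share groups and are not independent of each other. In all, 14 of the 61 tested members passed in at least 1 of the 9 comparisons. No share of all genes is given for this tally, so it is not a result about the members. In each single comparison their share was near that of all genes.

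**Figure D2:**
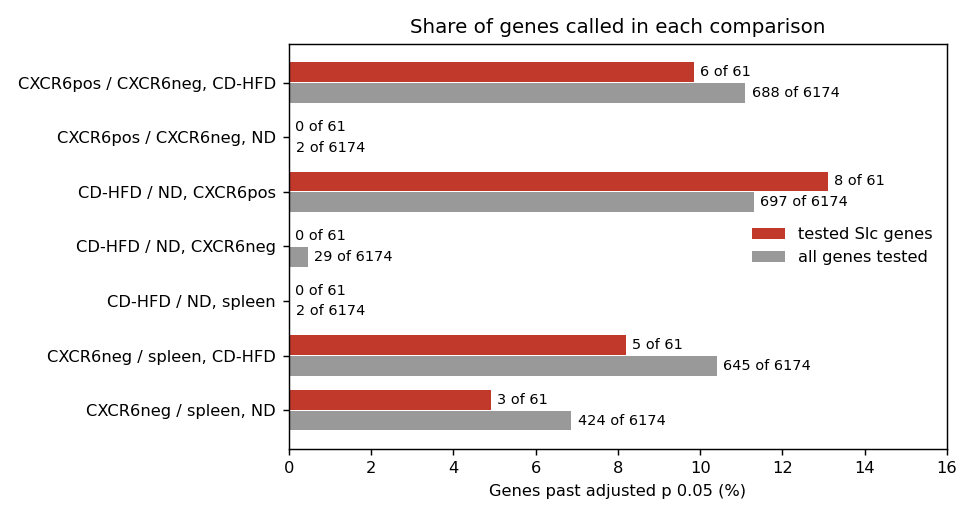
Share of genes past an adjusted p of 0.05 (percent, horizontal axis) among the 61 tested members and among all 6174 tested genes in 7 comparisons of groups. The members lie near all genes in each comparison, for example 9.84% beside 11.1% for CXCR6pos against CXCR6neg on CD-HFD.

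Of 12 amino acid carriers 9 were tested. Between the CXCR6 fractions on CD-HFD 1 was called, with 4.76% of all genes called higher and 6.38% lower there, so that a single call in 9 is near the background; it was higher in CXCR6pos. With diet in CXCR6pos cells 1 was higher (4.84% of all genes), and 2 were higher in CXCR6neg liver cells than in spleen on each diet (5.73% of all genes on CD-HFD and 4.73% on ND). Their median log2 fold change was 0.15 between the CXCR6 fractions on CD-HFD and 0.39 between the diets in CXCR6pos cells, beside 0.00 for all genes in each. Slc3a2 and Slc38a2 gave all of these calls. Both genes lie on the minus strand. Slc3a2 occupies chr19:8706882-8723369 and Slc38a2 chr15:96687392-96699730 (GRCm38). The stretch just before the start of Slc38a2 is shown. Atf4, described below, encodes a transcription factor known to act on amino acid carrier genes, and its part in the level of Slc38a2 was not tested. The 250 bases before the start of Slc38a2 do not hold TGATGNAA, the composite element of ATF4 and C/EBP factors, on either strand. Most mouse promoters lack it there too, as 3.45% of 32851 hold it. Bases past the start were not searched, so the missing letters say nothing about ATF4 and this gene. The sequence is RefSeq's for GRCm38.p6, 5′ to 3′ along the transcript and free of annotated exons, chr15:96699731-96699978 (from 250 to 3 bases before the start); no base is in capitals because no motif searched was found. RefSeq's start of Slc3a2 lies inside the annotated span of the gene and at no annotated transcript start, so its window is not shown.
Slc38a2: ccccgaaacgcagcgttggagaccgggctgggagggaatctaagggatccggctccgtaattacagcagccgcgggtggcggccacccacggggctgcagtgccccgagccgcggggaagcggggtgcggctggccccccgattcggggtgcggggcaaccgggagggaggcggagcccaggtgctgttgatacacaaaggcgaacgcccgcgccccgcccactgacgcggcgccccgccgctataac
The motifs searched were TGATGNAA, TGANTCA (AP-1, in 6.75% of promoters), GTAAACA (FOXO, 3.17%), TGCNCNC (the core of the metal response element, 44.4%), CACGTG (E-box, 6.02%) and GGAAA (the NFAT core, 55.6%), on both strands. A missing match says only that these letters are not in the window.

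Slc3a2, the CD98 heavy chain, was highest in CXCR6pos cells of CD-HFD livers. Its 5 libraries there read 912, 707, 822, 755 and 874 CPM (814 ± 84.1, n = 5). CXCR6neg cells of the same diet ran from 312 to 565 CPM with a median of 431 (423 ± 90.3, n = 6). The groups did not overlap, and Slc3a2 was 1.86-fold higher in CXCR6pos (log2 fold change 0.89 ± 0.12 SE, edgeR adjusted p = 7.82e-09). ND CXCR6pos libraries ran from 279.9 to 675 CPM with a median of 489.7 (485 ± 136, n = 6), again below every CD-HFD CXCR6pos library. Within CXCR6pos cells Slc3a2 was thus 1.58-fold higher on CD-HFD (0.66 ± 0.12, adjusted p = 1.1e-05). In CXCR6neg cells diet gave a log2 fold change of 0.06 ± 0.13 (adjusted p = 0.967) and in spleen 0.12 ± 0.13 (adjusted p = 1). The differences between these diet effects did not pass: 0.60 ± 0.18 between CXCR6pos and CXCR6neg (adjusted p = 0.0657) and 0.54 ± 0.17 between CXCR6pos and spleen (adjusted p = 0.0567). The first passed without any one of ND CXCR6pos replicate 2, ND CXCR6pos replicate 3, CD-HFD CXCR6pos replicate 2 or CD-HFD CXCR6neg replicate 1. On ND, CXCR6pos and CXCR6neg cells differed by 0.30 ± 0.13 (edgeR adjusted p = 0.51), in a comparison that holds both libraries at odds in Cxcr6.

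Spleen cells had the lowest Slc3a2. ND spleen libraries read 211, 227, 183, 212 and 255 CPM (217 ± 26.2, n = 5), and CD-HFD spleen ran from 189 to 271 CPM with a median of 233 (235 ± 31.7, n = 6). ND CXCR6neg libraries read 429.8, 372, 465.9 and 379 CPM (412 ± 44.5, n = 4). No spleen library reached the lowest CXCR6neg library of its diet. Slc3a2 was 1.91-fold higher in CXCR6neg than in spleen cells on ND (0.93 ± 0.14, edgeR adjusted p = 9.26e-08) and 1.84-fold higher on CD-HFD (0.88 ± 0.12, adjusted p = 3.12e-09). These 4 calls of Slc3a2 held under every alternative run.

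Slc38a2, a sodium-coupled importer of small neutral amino acids, was higher in CXCR6neg liver cells than in spleen. ND CXCR6neg libraries read 158, 149.6, 136 and 77.1 CPM (130.1 ± 36.5, n = 4), beside 57, 62.9, 44, 39.1 and 23.7 CPM in ND spleen (45.4 ± 15.4, n = 5). On CD-HFD, CXCR6neg libraries ran from 68.7 to 146 CPM with a median of 102 (108 ± 29.9, n = 6), beside 41.4 to 68.1 CPM with a median of 49.3 in spleen (51.1 ± 10.1, n = 6). The CXCR6neg and spleen libraries did not overlap on either diet, although the closest pair on CD-HFD was 68.7 and 68.1 CPM. Slc38a2 was 2.61-fold higher in CXCR6neg cells on ND (1.38 ± 0.23, edgeR adjusted p = 1.46e-06) and 2.11-fold higher on CD-HFD (1.08 ± 0.20, adjusted p = 2.09e-05). CXCR6pos cells stood at 109 ± 26.2 CPM (n = 6) on ND and 96.7 ± 43 CPM (n = 5) on CD-HFD, where libraries of 59.2 and 67.2 CPM lay within the spleen range, and the CXCR6 fractions on CD-HFD differed by -0.13 ± 0.22 (adjusted p = 0.821).

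Markers of other cells moved with the liver and spleen comparison. Of the 8 plasmacytoid dendritic cell genes, 7 were higher in CXCR6neg liver cells than in spleen on CD-HFD and 6 on ND, while none of the 4 T cell genes passed by edgeR. Of 4 tested NK cell genes 2 were higher in liver on CD-HFD and 1 on ND, and of 4 tested B cell genes 1 was higher and 2 lower on CD-HFD and 1 higher and 1 lower on ND. On ND, 3 of 5 tested erythroid genes were higher as well, and the 1 tested Kupffer cell and macrophage gene was lower on both diets. Between the CXCR6 fractions on CD-HFD all 8 plasmacytoid dendritic cell genes, 3 of 4 tested B cell genes and 2 of 4 tested NK cell genes were lower in CXCR6pos, the direction of Slc11a2, Slc12a7 and Slc17a9 described below. In the same comparison 3 of 4 T cell genes were higher in CXCR6pos, the direction of Slc3a2, Slc16a6 and Slc39a4, and 0 of 5 erythroid genes passed by edgeR. With diet in CXCR6pos cells, 2 of 4 T cell genes were higher, 3 of 4 tested NK cell genes lower and 1 higher, and none of the 8 plasmacytoid dendritic cell genes passed. The part of these cells in the results for these members was not tested.

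The other glutamine carriers, Slc1a5 and Slc38a1, had no call in any of the 9 comparisons. Slc1a5 had group means from 167 ± 19.1 CPM (n = 5) in ND spleen to 226 ± 26.3 CPM (n = 6) in ND CXCR6pos, and Slc38a1 had group means from 57.4 to 74.3 CPM. Among the other amino acid carriers, the CD98 light chain Slc7a6 had group means from 18.6 to 32.4 CPM and the lysosomal histidine and peptide carrier Slc15a4 from 12.7 to 29.5 CPM. The taurine carrier Slc6a6 had group means from 24.9 to 43.6 CPM, and the large neutral amino acid carrier Slc43a2 from 21.2 to 31.7 CPM. Slc38a10 differed by 0.72 ± 0.33 between the CXCR6 fractions on CD-HFD (edgeR adjusted p = 0.175). The arginine importer Slc7a1, with group means from 7.59 to 18 CPM, was too low to test.

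**Figure D3:**
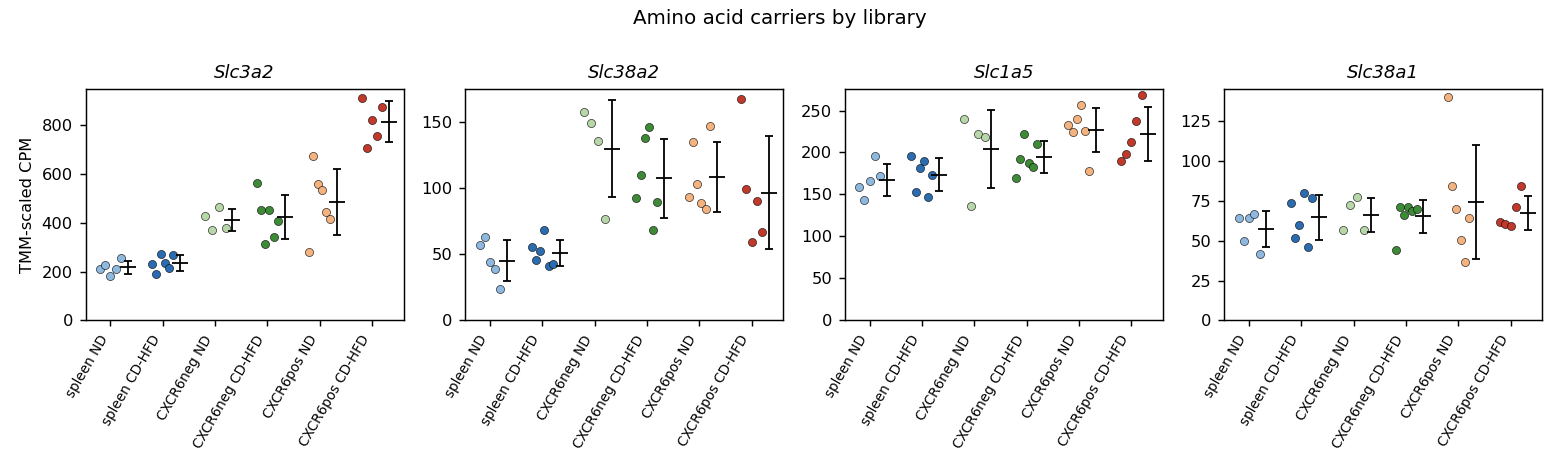
CPM of Slc3a2, Slc38a2, Slc1a5 and Slc38a1 in every library (points) by group, with bars for the mean and SD. For Slc3a2 the 5 CD-HFD CXCR6pos libraries, from 707 to 912 CPM, lie above every library of all other groups; for Slc38a2 the spleen libraries, from 23.7 to 68.1 CPM, lie below every CXCR6neg library.

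Of 17 carriers of metals and heme 6 were tested. Between the CXCR6 fractions on CD-HFD 1 was higher (4.76% of all genes) and 1 lower (6.38%), and so it was between the diets in CXCR6pos cells (4.84% and 6.45%), with a median log2 fold change of the 6 of 0.29 and 0.04. The lower one was Slc11a2 (chr15:100387898-100425072, minus strand), the divalent metal transporter that moves iron into the cytosol. CD-HFD CXCR6pos libraries read 5.6, 12.8, 11.8, 16.4 and 33.6 CPM (16 ± 10.6, n = 5), from 15 counts in all. CXCR6neg libraries of that diet ran from 19.6 to 60.1 CPM with a median of 45.1 (41.2 ± 16.7, n = 6), and ND CXCR6pos from 30.9 to 93.3 CPM with a median of 52.2 (55.4 ± 21.3, n = 6). One library, CD-HFD CXCR6pos replicate 5 at 33.6 CPM, overlapped both of these groups, and the other 4 lay below them. Slc11a2 was 2.91-fold lower than in CXCR6neg cells (-1.54 ± 0.40, edgeR adjusted p = 0.00399) and 3.45-fold lower than on ND (-1.79 ± 0.38, adjusted p = 0.000202). Its diet effect also differed from that in spleen cells (-1.49 ± 0.44, adjusted p = 0.0308), where the means were 61.7 ± 10.2 CPM (n = 5) on ND and 48.5 ± 16 CPM (n = 6) on CD-HFD. That difference was lost by DESeq2 (adjusted p = 0.0978) and without any one of 7 libraries, namely ND CXCR6pos replicate 5, CD-HFD CXCR6pos replicates 1 to 4, ND spleen replicate 4 and CD-HFD spleen replicate 2 (adjusted p from 0.0520 to 0.116). The difference between the diet effects of CXCR6pos and CXCR6neg cells did not pass (-1.37 ± 0.50, adjusted p = 0.175).

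Slc39a4 (chr15:76612383-76617384, minus strand), a zinc importer of the plasma membrane, went the other way. CD-HFD CXCR6pos libraries read 44.8, 38.4, 29.6, 38.3 and 33.6 CPM (36.9 ± 5.71, n = 5), from 41 counts. ND CXCR6pos ran from 0 to 25.3 CPM (14.3 ± 8.43, n = 6) and CD-HFD CXCR6neg from 0 to 17.8 CPM (13.2 ± 6.79, n = 6), with no overlap with CD-HFD CXCR6pos. The gene was 2.46-fold higher than in CXCR6neg cells (1.30 ± 0.42, edgeR adjusted p = 0.0269) and 2.18-fold higher than on ND (1.12 ± 0.39, adjusted p = 0.0468). Both calls were weak: with no filter on low counts the adjusted p was 0.0863 and 0.158. For diet it rose to 0.0501 to 0.115 without any one of ND CXCR6pos replicates 1, 2, 3, 5 or 6 or CD-HFD CXCR6pos replicate 3. DESeq2 gave 0.0521 for diet, and the diet call was lost in 9 of the 12 alternative runs that tested the gene. Without CD-HFD CXCR6pos replicate 1, 2, 4 or 5 the gene fell below the filter and was not tested. Slc39a4 thus entered the tests only through these libraries, which belong to the group where it was high. Its calls and the lack of overlap are not free of that selection and are given as a description.

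Slc48a1 (chr15:97778520-97792692, plus strand), a heme transporter of endolysosomes, did not pass in any comparison, although its 4 ND CXCR6neg libraries (50.6, 34.2, 49.2 and 67 CPM) lay above all 6 CD-HFD CXCR6neg libraries (0 to 33.6 CPM). The log2 fold change of diet there was -1.23 ± 0.36 (edgeR adjusted p = 0.101). The zinc importer Slc39a6 had group means from 18.6 to 36.8 CPM and no call. Of the iron and zinc carriers outside the set, the exporter Slc40a1 reached 3.44 CPM and Slc39a8 reached 2.40 CPM in their highest groups.

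Among carriers of ions, 5 of 14 members were tested. Between the CXCR6 fractions on CD-HFD 1 was lower in CXCR6pos (6.38% of all genes). Between the diets in CXCR6pos cells 1 was lower on CD-HFD (6.45% of all genes). Both calls were Slc12a7 (chr13:73733094-73816754, plus strand), a potassium and chloride cotransporter that takes part in the control of cell volume. CD-HFD CXCR6pos libraries read 44.8, 41.6, 29.6, 27.3 and 84 CPM (45.5 ± 22.8, n = 5). ND CXCR6pos ran from 0 to 106 CPM with a median of 94.5 (76.9 ± 39.9, n = 6), where the 0 is the library of 15633 counts and the other 5 read at least 67.5 CPM. On CD-HFD, CXCR6neg ran from 49.9 to 102 CPM with a median of 65.1 (72.5 ± 23.6, n = 6). CD-HFD CXCR6pos replicate 5, at 84 CPM, overlapped both groups, and the other 4 libraries lay below all CXCR6neg libraries. Slc12a7 was 2.42-fold lower on CD-HFD in CXCR6pos cells (-1.28 ± 0.26, edgeR adjusted p = 0.000124), and this diet effect differed from that in spleen (-1.21 ± 0.32, adjusted p = 0.00995), a difference lost without CD-HFD CXCR6pos replicate 4 (adjusted p = 0.0749). It was 1.88-fold lower than in CXCR6neg cells (-0.91 ± 0.28, adjusted p = 0.0200). The latter was lost without CD-HFD CXCR6pos replicate 3 (adjusted p = 0.0522) or 4 (0.138), or CD-HFD CXCR6neg replicate 3 (0.0580) or 4 (0.0756). The phosphate importer Slc20a1 (group means 50 to 63.2 CPM), the bicarbonate cotransporter Slc4a7 (24.7 to 36.8 CPM) and the endosomal sodium and proton exchanger Slc9a9 (27.9 to 53.9 CPM) had no call.

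Of the 15 members that carry vitamins, nucleosides, choline, lipids or organic ions, 7 were tested. Of all genes 6.38% were lower between the CXCR6 fractions on CD-HFD and 6.45% between the diets in CXCR6pos cells. Slc17a9 (chr2:180725263-180742280, plus strand), which loads ATP and other nucleotides into secretory vesicles, was the only 1 of the 7 members called between the CXCR6 fractions or between the diets. CD-HFD CXCR6pos libraries read 0, 3.2, 0, 13.7 and 33.6 CPM (10.1 ± 14.3, n = 5), 8 counts in all. CD-HFD CXCR6neg ran from 12 to 49.9 CPM (33.3 ± 14.8, n = 6; 45 counts) and ND CXCR6pos from 0 to 43.1 CPM (24.6 ± 15.4, n = 6; 56 counts). The groups overlapped through CD-HFD CXCR6pos replicates 4 and 5 and through the 0 of ND CXCR6pos replicate 1. Slc17a9 was 4.28-fold lower than in CXCR6neg (-2.10 ± 0.51, edgeR adjusted p = 0.00155) and 4.11-fold lower than on ND (-2.04 ± 0.50, adjusted p = 0.00159). Without CD-HFD CXCR6pos replicate 4 these log2 fold changes were -2.86 and -2.80, and over all libraries left out in turn they ran to -1.82 and -1.75. Its diet effect did not pass the tests against CXCR6neg (-1.88 ± 0.63, adjusted p = 0.12) or spleen cells (-1.76 ± 0.57, adjusted p = 0.0565).

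Slc14a1, a urea transporter, was lower in CXCR6neg liver cells than in spleen on CD-HFD. The liver libraries ran from 10.7 to 50.1 CPM (30.5 ± 14.1, n = 6) and the spleen libraries from 26.6 to 63.4 CPM (53.2 ± 13.5, n = 6), where 5 of 6 spleen libraries lay above every liver library. The difference was 1.85-fold (-0.89 ± 0.26, edgeR adjusted p = 0.0151), lost by DESeq2 (adjusted p = 0.0514) and without CD-HFD CXCR6neg replicate 2 (0.119) or 6 (0.0651). Group means without a call were 93 to 150 CPM for the choline carrier Slc44a2, 43.6 to 71.9 CPM for the nucleoside importer Slc28a2 and 31.5 to 53.8 CPM for the nucleoside carrier Slc29a1.

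**Figure D4:**
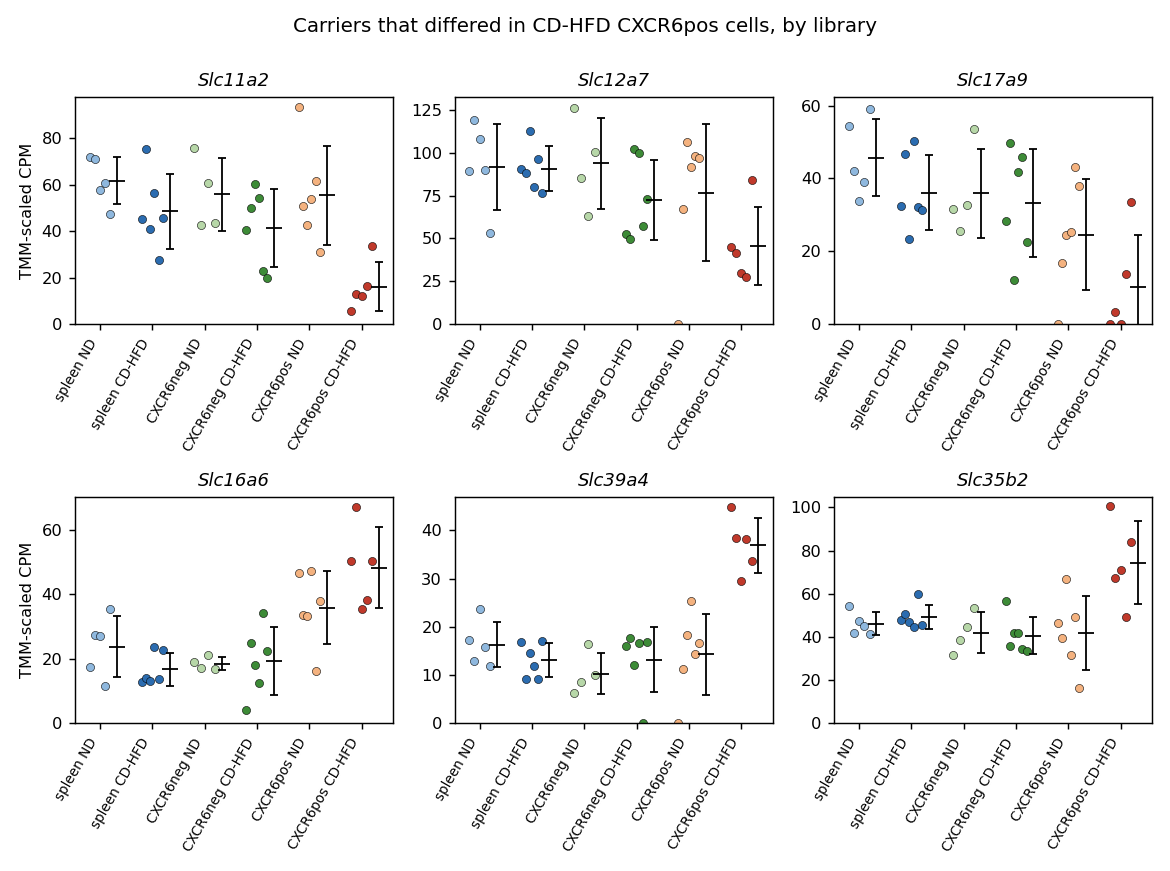
CPM of Slc11a2, Slc12a7, Slc17a9, Slc16a6, Slc39a4 and Slc35b2 in every library (points) by group, with bars for the mean and SD. In CD-HFD CXCR6pos, Slc11a2 (5.6 to 33.6 CPM), Slc12a7 (27.3 to 84 CPM) and Slc17a9 (0 to 33.6 CPM) are low, and Slc39a4 (29.6 to 44.8 CPM) is high.

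Carriers of sugars and monocarboxylates gave 1 call between the CXCR6 fractions on CD-HFD, higher in CXCR6pos (4.76% of all genes). They gave none between the diets, beside 11.3% of all genes in CXCR6pos cells. Of 13 members 6 were tested. Slc16a6 (chr11:109450855-109473598, minus strand), of the monocarboxylate transporter family, read 50.4, 67.2, 35.5, 38.3 and 50.4 CPM in CD-HFD CXCR6pos (48.4 ± 12.5, n = 5) and 4.04 to 34.4 CPM with a median of 20.2 in CD-HFD CXCR6neg (19.4 ± 10.5, n = 6). No libraries overlapped, and Slc16a6 was 2.65-fold higher in CXCR6pos (1.41 ± 0.38, edgeR adjusted p = 0.00485). The call was lost without CD-HFD CXCR6pos replicate 2 (adjusted p = 0.0620). On ND the means were 35.9 ± 11.3 CPM (n = 6) in CXCR6pos and 18.5 ± 1.98 CPM (n = 4) in CXCR6neg, with no call. In spleen they were 23.8 ± 9.38 CPM (n = 5) on ND and 16.8 ± 5.02 CPM (n = 6) on CD-HFD. The gene overlaps Amz2 and Arsg on the opposite strand, and whether counting used strand is not given, so reads of these genes could not be told apart. Slc11a2, Slc25a11 and Slc37a1 each overlap a gene on the opposite strand too.

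Slc37a1 (chr17:31286792-31350739, plus strand), a sugar-phosphate exchanger of the endoplasmic reticulum, was 1.93-fold higher in CXCR6neg than in spleen cells on ND (0.95 ± 0.26, edgeR adjusted p = 0.0087). The libraries read 44.2, 103, 86.6 and 53.6 CPM (71.8 ± 27.4, n = 4) against 42.1, 29, 54.2, 34.8 and 41.4 CPM (40.3 ± 9.42, n = 5) and overlapped. The call was lost without ND CXCR6neg replicate 3 (0.0797) or 4 (0.105), or ND spleen replicate 2 (0.0564). On CD-HFD, Slc37a1 differed between CXCR6neg and spleen cells by 0.28 ± 0.24 (edgeR adjusted p = 0.544). The glucose importer Slc2a3 had means of 81.9 CPM in CD-HFD CXCR6pos, 46.8 CPM in CD-HFD CXCR6neg and 33.1 CPM in CD-HFD spleen. Its differences did not pass, at 0.61 ± 0.27 between the CXCR6 fractions (adjusted p = 0.161) and 0.73 ± 0.27 between CXCR6neg and spleen (adjusted p = 0.0609). Slc2a1, the other main glucose importer of T cells, differed by -0.77 ± 0.38 between the CXCR6 fractions on CD-HFD (adjusted p = 0.212), with means of 21.5 and 37.7 CPM. Slc50a1, a sugar carrier of the SWEET family, missed the threshold between CXCR6neg and spleen on CD-HFD (-0.43 ± 0.15, adjusted p = 0.0511). The lactate carrier Slc16a1 was too low to test (group means 7.05 to 20.6 CPM).

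Carriers of nucleotide sugars and related substrates numbered 16, of which 9 were tested and 2 passed in some comparison. With diet in CXCR6pos cells 1 was higher (4.84% of all genes). In CXCR6neg liver cells 1 was higher than in spleen on CD-HFD (5.73% of all genes). Slc35b2 (chr17:45563874-45567671, plus strand) brings the sulfate donor PAPS into the Golgi. It read 101, 67.2, 71, 49.2 and 84 CPM in CD-HFD CXCR6pos (74.4 ± 19.3, n = 5) and 16.6 to 66.9 CPM with a median of 43 in ND CXCR6pos (41.7 ± 17, n = 6), and 4 of the 5 CD-HFD libraries lay above every ND library. It was 1.70-fold higher on CD-HFD (0.77 ± 0.26, edgeR adjusted p = 0.0403). Against CXCR6neg on CD-HFD (40.6 ± 8.59 CPM, n = 6) the difference of 0.76 ± 0.27 did not pass (adjusted p = 0.0544). The diet call was lost by DESeq2 (adjusted p = 0.0554) and without any one of ND CXCR6pos replicates 2, 4 or 6 or CD-HFD CXCR6pos replicates 1, 2, 3 or 5 (0.0532 to 0.234). It was lost in 13 of 21 alternative runs, also with no filter and with the replicate block.

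Slc35b1 (chr11:95384692-95391776, plus strand), which exchanges ATP and ADP across the membrane of the endoplasmic reticulum, was 1.55-fold higher in CXCR6neg than in spleen cells on CD-HFD (0.63 ± 0.22, edgeR adjusted p = 0.0493). The liver libraries ran from 22.9 to 81.9 CPM (57.9 ± 19.7, n = 6) and the spleen libraries from 32.3 to 59.8 CPM (41.3 ± 10, n = 6), and the groups overlapped. The call was lost by DESeq2 (adjusted p = 0.0778) and without any one of CD-HFD CXCR6neg replicates 2, 3, 4 or 6 or CD-HFD spleen replicates 1, 2, 3 or 4 (0.0692 to 0.208). It was lost in 11 of 22 alternative runs, also with no filter and with the replicate block. On ND the means of Slc35b1 were 42.2 ± 8.67 CPM (n = 4) in CXCR6neg and 44.1 ± 8.75 CPM (n = 5) in spleen. The log2 fold change there was -0.12 ± 0.27 (edgeR adjusted p = 0.885). Slc35d2, a Golgi nucleotide sugar carrier, differed between CXCR6neg and spleen on ND by 0.87 ± 0.33 (adjusted p = 0.0918).

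The mitochondrial Slc25 carriers were the most numerous class, with 28 members and 17 tested. Between the CXCR6 fractions on CD-HFD 0 of 17 passed by edgeR or by DESeq2, beside 11.1% of all genes by edgeR. There 1 had an unadjusted p under 0.05 by edgeR. Between the diets in CXCR6pos cells 1 was higher (4.84% of all genes) and 1 lower (6.45%). Between CXCR6neg and spleen cells on CD-HFD 1 was lower (4.71% of all genes). The ADP/ATP carrier Slc25a5 had group means from 581 to 705 CPM, its relative Slc25a4 from 111 to 170 CPM and the phosphate carrier Slc25a3 from 377 to 439 CPM, and none of the 3 passed by edgeR. DESeq2 called Slc25a5 higher in CXCR6neg than in spleen cells on CD-HFD, where edgeR gave 0.25 ± 0.10 (adjusted p = 0.0997). The citrate carrier Slc25a1 had group means from 20.9 to 36 CPM and no call.

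Slc25a51 (chr4:45395923-45408766, minus strand), the mitochondrial NAD importer, was 1.80-fold lower on CD-HFD in CXCR6pos cells (-0.84 ± 0.30, edgeR adjusted p = 0.0492), with 33.6, 28.8, 29.6, 21.9 and 50.4 CPM (32.8 ± 10.7, n = 5) against 41 to 93.3 CPM (59.6 ± 18.9, n = 6), and the groups overlapped. Without any one of ND CXCR6pos replicates 1 to 4 or CD-HFD CXCR6pos replicates 1 to 4 its adjusted p was 0.0537 to 0.228, and DESeq2 gave 0.104. The call was lost in 16 of 21 alternative runs, also with RLE scaling, with no filter and with the identical library kept.

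Slc25a11 (chr11:70644196-70647479, minus strand), the oxoglutarate and malate exchanger of the malate-aspartate shuttle, was 1.49-fold lower in CXCR6neg liver cells than in spleen on CD-HFD (-0.58 ± 0.15, edgeR adjusted p = 0.00363). The liver libraries ran from 57.3 to 157 CPM with a median of 117 (113 ± 35.5, n = 6) and the spleen libraries from 152 to 270.0 CPM with a median of 169 (185 ± 42.8, n = 6), and 5 of 6 liver libraries lay below every spleen library. On ND the means were 159 ± 14.4 CPM (n = 4) in CXCR6neg and 176 ± 12.8 CPM (n = 5) in spleen, with no call. Slc25a24, an ATP and phosphate exchanger, differed between CXCR6neg and spleen on ND by 1.04 ± 0.36 with no overlap of libraries (adjusted p = 0.0609).

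**Figure D5:**
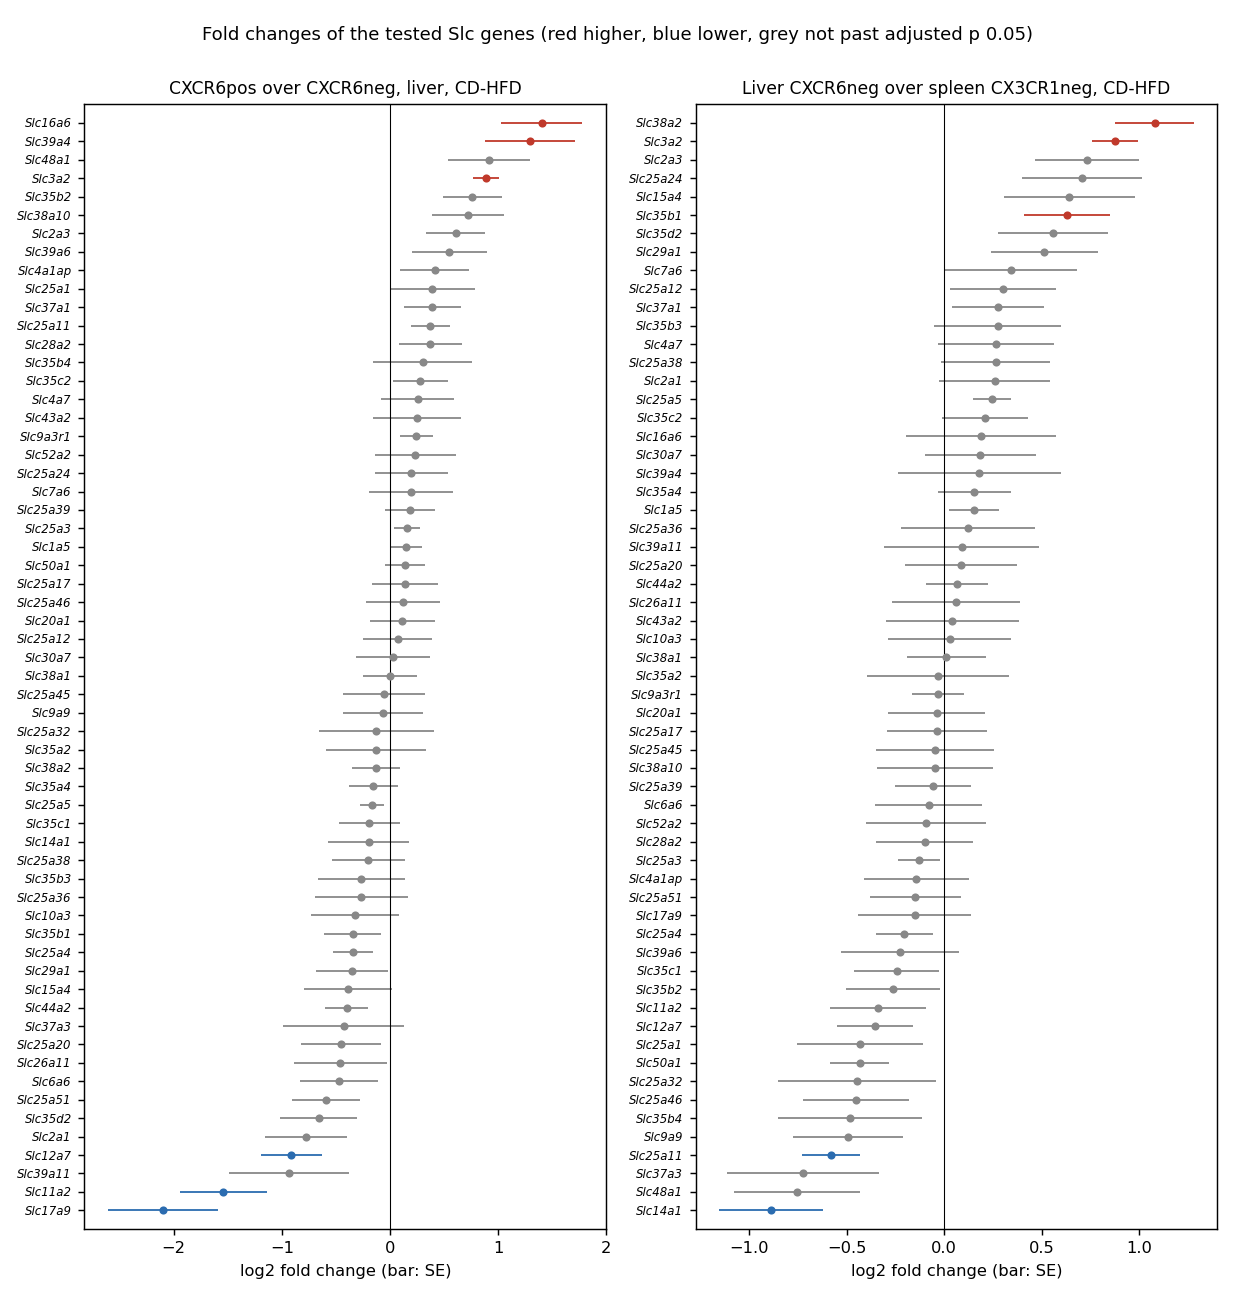
Log2 fold change (horizontal axis, point) and SE (bar) of 60 tested members for CXCR6pos against CXCR6neg on CD-HFD (left) and CXCR6neg against spleen on CD-HFD (right), with called members in red where higher and blue where lower. Slc3a2 lies high in both, at 0.89 ± 0.12 and 0.88 ± 0.12, and Slc17a9 is lowest on the left, at -2.10 ± 0.51.

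The 58 untested members included most metal carriers, 11 of 17, and 9 of 14 ion carriers. Their group means rested on low counts, with a median count of 0 to 7 per library. The lysosomal carrier Slc46a3 had group means from 10.3 to 24.6 CPM, the zinc importer Slc39a10 from 3.82 to 23.4 CPM and the intracellular glucose carrier Slc2a8 from 6.83 to 24.1 CPM. Slc35e3 (11.2 CPM in its highest group) and Slc4a8 (18.0 CPM) entered the set only through the libraries of 15633 and 57168 counts. The scaffold Slc9a3r1, tested but not a carrier, had group means from 183 to 229 CPM and Slc4a1ap from 32.1 to 54.8 CPM, and neither was called.

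Genes that work beside the carriers were read from a pair of lists. One held 39 carriers that go by other symbols, of which 15 were tested; the other held 41 partner, metabolic and nutrient-sensing genes, of which 23 were tested. Between the CXCR6 fractions on CD-HFD, 1 of 15 other carriers was higher and 2 lower, and 1 of 23 partners was higher and 2 lower, beside 4.76% of all genes higher and 6.38% lower. Emb, which encodes embigin, a chaperone of monocarboxylate transporters, had 68.4 CPM in CXCR6pos and 278 CPM in CXCR6neg (-2.04 ± 0.22, edgeR adjusted p = 1.77e-10). Ucp2, a mitochondrial carrier, had 226 and 127 CPM (0.80 ± 0.17, adjusted p = 0.00017). Myc, a transcription factor known to raise amino acid carriers in activated T cells, had 72.9 and 124 CPM (-0.93 ± 0.22, adjusted p = 0.00105). Its part in the levels of the carriers was not tested. The other 3 were hexokinase Hk1 (0.81 ± 0.23), the mitochondrial serine carrier family member Sfxn3 (-0.81 ± 0.22) and the organic anion carrier Slco3a1 (-1.69 ± 0.48).

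Diet in CXCR6pos cells gave 1 higher and 1 lower among the other carriers and 1 higher and 3 lower among the partners, beside 4.84% and 6.45% of all genes. Emb (-1.61 ± 0.22, edgeR adjusted p = 1.98e-07), Slco3a1 (-2.10 ± 0.44), Myc (-0.88 ± 0.21) and Lamtor2, part of the lysosomal amino acid sensing complex (-0.65 ± 0.16), were lower on CD-HFD. Ucp2 (0.66 ± 0.16) and the lactate dehydrogenase subunit Ldhb (1.18 ± 0.40) were higher.

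Between CXCR6neg liver cells and spleen cells, 3 of 23 partners were higher and 0 lower by edgeR on each diet, beside 5.73% of all genes higher on CD-HFD and 4.73% on ND. Atf4 had 352 ± 106 CPM (n = 4) against 109 ± 17.2 CPM (n = 5) on ND (1.63 ± 0.15, edgeR adjusted p = 2.55e-16) and 273 ± 32.2 CPM (n = 6) against 105 ± 17.1 CPM (n = 6) on CD-HFD (1.37 ± 0.14, adjusted p = 3.92e-15). The iron storage genes Fth1 (0.63 ± 0.10 on ND and 0.45 ± 0.09 on CD-HFD) and Ftl1 (1.63 ± 0.31 and 1.13 ± 0.27) were the other 2. Among the other carriers 0 were higher and 1 lower on CD-HFD, which was Ucp2 (-0.45 ± 0.15), and 0 changed on ND by edgeR.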

How the data were processed

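The authors deposited 1 table of raw counts per gene for sorted CD8 T cells, sequenced in bulk from the 3′ ends of polyadenylated RNA, per the labels' protocols. Genome build GRCm38.p6 and DESeq2 1.14.1 are named per the submitters' processing notes; for the aligner, the counter, the use of strand and any collapsing of molecular identifiers, the sources used here give nothing. Of 35 samples in the labels 34 matched a column; 1 column that matched no sample was not used, 1 sample had no column, and 2 identical columns were left out, leaving 32 libraries of 15633 to 978896 counts. At 1 count per library the level is uncertain for low genes, and no term for length was applied, so levels were not ranked between genes.

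edgeR 4.0.16 in R 4.3.3 was fitted once over all 6 groups (TMM factors, filterByExpr by group, robust quasi-likelihood), with Benjamini-Hochberg adjustment over 6174 genes and a threshold of 0.05; SE is the size of the log2 fold change over the root of F. The 9 comparisons cover 7 pairs of groups and 2 differences of diet effects. The method was tested on simulated data. DESeq2 1.42.0, RLE scaling, no filter, fits of the compared groups alone, a replicate block, libraries left out and the identical library kept were tried as alternatives; leaving out the libraries at odds in Cxcr6 was added after seeing the data. The members and gene lists were chosen with earlier results of these data known. Genes were named when past the threshold with at least 20 CPM in the higher group, when among the 3 smallest p-values of a class, when known from T cells, or when beside the limit of 10 CPM. Gene positions are those of GENCODE M21 (GRCm38), and promoter sequences those of RefSeq, which held 89 of the 119 members and 7 of the 14 called ones. The values of 1 called member are not reported here.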

Additional observations from a re-analysis of the deposited data

Results flagged for a closer look

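Among the 14 called members in 6 groups (84 sets of libraries), 6 sets held a library that stood far from the rest of its group, beside about 1 in 20 by chance. ND CXCR6pos replicate 1, of 15633 counts, read 0 CPM for Slc12a7. CD-HFD spleen replicate 4 read 26.65 CPM for Slc14a1, replicate 6 read 270.0 CPM for Slc25a11 and replicate 1 read 24.59 CPM for Slc37a1. In CD-HFD CXCR6neg, replicate 1 read 56.5 CPM for Slc35b2 and replicate 5 read 0 CPM for Slc39a4. The effect of diet differed between CXCR6pos liver cells and spleen cells, by edgeR's test of the difference itself, for Slc12a7 (log2 difference -1.21, adjusted p = 0.00995) and Slc11a2 (-1.49, adjusted p = 0.0308).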

How the results depend on the processing

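Counts were low: 24 of the 61 tested members had a median count under 10 per library. Over 24 calls and 499 alternative values, 422 kept the call, 77 lost it and 0 changed direction. Runs in which a gene fell below the filter and was not tested are not among these values, so they do not count as lost. Between CXCR6pos and CXCR6neg on CD-HFD, 3 members were called when only these groups were fitted (Slc11a2, Slc16a6, Slc17a9 and Slc39a4 were then not tested) and 1 with a replicate block. For diet in CXCR6pos cells the count was 5 by DESeq2, 5 with no filter, 4 with only the groups compared, 3 with the replicate block and 5 without ND CXCR6pos replicate 6 and ND CXCR6neg replicate 4. For the difference of diet effects between CXCR6pos and spleen it was 1 by DESeq2 and 4 with the identical library kept in spleen. Leaving out 1 library at a time gave 5 to 7 calls between the CXCR6 fractions on CD-HFD, 5 to 7 for diet in CXCR6pos, 3 to 6 and 2 to 4 between CXCR6neg and spleen on CD-HFD and ND, 0 to 1 and 1 to 4 for the differences of diet effects against CXCR6neg and spleen, and 0 to 0 elsewhere. Libraries that share a replicate number were little correlated (-0.06 to 0.108). The same number was the best match in 4 of 5 pairs between the diets in CXCR6pos cells. It was so in 3 of 5 between the CXCR6 fractions on CD-HFD and 1 of 4 on ND. For diet it was 2 of 4 in CXCR6neg and 2 of 5 in spleen. Between CXCR6neg and spleen it was 0 of 6 on CD-HFD and 1 of 4 on ND. These values cannot decide whether the numbers mark shared animals or batches. The rule gave 118 members on scaled CPM, 144 at 5 CPM and 81 at 20 CPM.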
